A study of Mus musculus with 11 samples.

Results

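The 9 genes described here encode proteins that define megakaryocytes and platelets: the chemokines *Pf4* and *Ppbp*, the integrin subunits *Itga2b* and *Itgb3*, the von Willebrand factor receptor subunits *Gp1ba*, *Gp1bb* and *Gp9*, the collagen receptor *Gp6* and the granule receptor *Treml1*. They were taken by name, as the rows of the count table whose Entrez gene ID carries one of these mouse symbols, and all 9 were found among its 27179 rows. The table holds RNA-seq of CD31hi EMCNhi endothelial cells (ECs), sorted from the bone marrow of BALB/c mice with CD45+ and Ter119+ cells gated out. These markers define type H capillaries, but the paper reports that vessels within metastases carried them without other type H features. The met libraries (n = 3) came from marrow infiltrated by 4T1.2 cells, mammary cancer cells that also derive from BALB/c mice and carried a red fluorescent protein, and the non-met libraries (n = 6) came from adjacent marrow of the same burdened bones without that fluorescence. The controls (n = 2) were age-matched healthy BALB/c mice without tumour. Each library was made from a pool of 1 or more mice with a low-input full-length cDNA kit. Of the 4 burdened pools, pools 2, 3 and 4 gave both met and non-met libraries. Non-met 1 and 5 came from burdened pool 1, met 1 shared pool 2 with non-met 2 and 6, met 2 shared pool 3 with non-met 3, and met 3 shared pool 4 with non-met 4. The 6 non-met libraries are therefore not 6 independent groups of animals.

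Megakaryocytes are the large polyploid marrow cells that lie against sinusoids and shed platelets into the blood. ITGA2B (CD41) and ITGB3 (CD61) pair to form the fibrinogen receptor of platelets, which joins one platelet to the next, and ITGB3 also pairs with ITGAV in other cells, ECs among them. GP1BA, GP1BB and GP9 form, with GP5, the complex that catches platelets on von Willebrand factor, and GP6 is their receptor for collagen. PF4 and PPBP are stored in alpha granules and released on activation, and TREML1 moves from those granules to the surface. CD31, 1 of the sort markers, is carried by ECs and also by megakaryocytes and platelets.

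The genes lie on several chromosomes of GRCm38.p6, the build of mm10 to which the reads were aligned. *Itga2b* spans chr11:102453297-102469883, *Itgb3* chr11:104608000-104670476 and *Gp1ba* chr11:70639102-70643986. *Pf4* (chr5:90772435-90773383) starts 2372 bases after the end of *Ppbp* (chr5:90768518-90770063). *Gp9* lies at chr6:87776131-87779786, *Gp6* at chr7:4362853-4397851 and *Treml1* at chr17:48359916-48367176. The span of *Gp1bb* (chr16:18620319-18622403) overlaps that of *Septin5*. The strand setting of the counting was not stated and overlap of exons was not examined, so how reads of such a pair were assigned is not known. The 150 bases upstream of the annotated start are shown for 2 genes that had reads and 2 that had almost none, so that the promoters can be set beside the counts. They are RefSeq sequences of GRCm38.p6 on the strand of the gene, and capitals mark a match to an ETS motif (AGGAAG or CGGAAG) or a GATA motif (AGATAA or TGATAA), the binding motifs of the megakaryocyte factors FLI1 and GATA1, on either strand. The starts used for *Gp9* and *Gp1ba* lie inside the annotated span of the gene, so their windows do too in whole or in part.
Itga2b, minus strand, chr11:102469884-102470033: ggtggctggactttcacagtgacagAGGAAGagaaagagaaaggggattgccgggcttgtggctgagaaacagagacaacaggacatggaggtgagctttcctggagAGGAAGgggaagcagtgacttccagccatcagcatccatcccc
Pf4, plus strand, chr5:90772285-90772434: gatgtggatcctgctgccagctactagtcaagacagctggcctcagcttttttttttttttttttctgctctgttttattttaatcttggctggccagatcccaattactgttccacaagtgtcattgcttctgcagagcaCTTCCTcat
Gp9, plus strand, chr6:87777920-87778069: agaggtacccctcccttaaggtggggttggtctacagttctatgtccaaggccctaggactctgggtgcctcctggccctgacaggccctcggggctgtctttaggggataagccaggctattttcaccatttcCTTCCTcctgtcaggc
Gp1ba, plus strand, chr11:70638972-70639121: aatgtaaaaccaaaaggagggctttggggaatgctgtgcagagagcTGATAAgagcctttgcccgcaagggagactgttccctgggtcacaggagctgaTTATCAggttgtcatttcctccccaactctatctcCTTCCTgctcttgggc
Counted on the gene strand from the 5′ base of the match, the ETS letters of *Itga2b* lay 125 and 43 bases upstream of the start, those of *Pf4* 9 and those of *Gp9* and *Gp1ba* 16 bases upstream. The GATA letters of *Gp1ba* lay 104 and 51 bases upstream. Within 250 upstream bases, an ETS match was present in 5 of the 8 members with a promoter in the table and in 39.0% of 27025 promoters, and a GATA match in 2 of 8 and in 17.0%. The matches are a description of letters, and no binding was measured here.

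The libraries differed widely in depth. Totals were 733342 to 19539761 counts, so that a floor of 3 reads corresponded to 0.154 to 4.09 CPM (reads per 1000000 counts of the library). Without molecular identifiers on the reads, floors and intervals cover counting error alone. The sorted cells carried EC transcripts in every library, with *Pecam1* (CD31) at 936 to 3142 CPM, *Emcn* (endomucin) at 265 to 1317 CPM and *Cdh5* (VE-cadherin) at 849 to 1982 CPM. *Ptprc* (CD45), the marker of the leucocyte gate, had 255 reads in control 1, 205 in met 2 and 0 in the 9 other libraries. Genes with 1 to 5 reads made up 4.72% to 6.09% of the detected genes in the controls and non-met 1, and 11.1% to 40.5% in the 8 other libraries.

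Most values of the 9 genes were 0. Of 99 values (9 genes in 11 libraries), 82 were 0, 6 were 1 to 5 reads, 0 were 6 to 64 reads and 11 were 65 to 285 reads. Among the 258104 values of all 23464 genes kept, 58.8% were 0, 7.63% were 1 to 5 reads, 5.43% were 6 to 64 and 28.1% were 65 or more. No value of the 9 genes thus lay between 5 and 65 reads, a range that held a small share of the values of all genes kept. Genes that passed the filter on low counts were above 5 reads in a median of 7 libraries, and 26.6% of them were above 5 reads in 2 to 4 libraries.

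**Figure D1:**
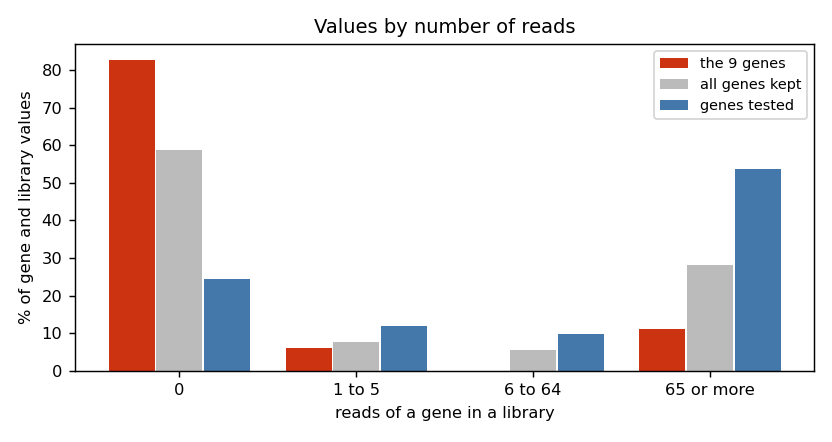
Share of gene and library values (y axis, %) by number of reads (x axis), for the 9 genes (99 values), all genes kept and the genes tested. The 9 genes had 82.8% of values at 0 and 0% between 6 and 64 reads.

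**Figure D2:**
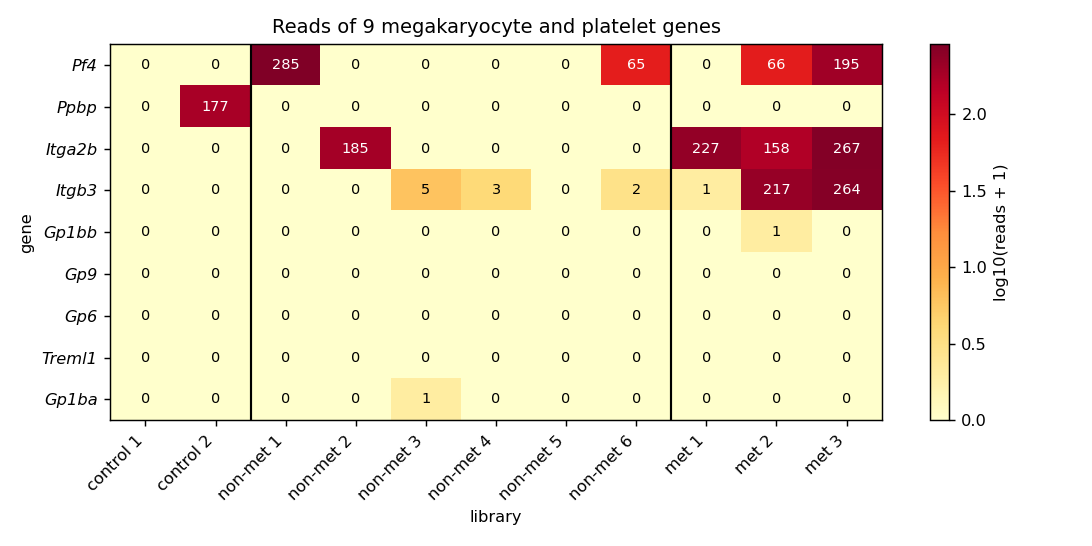
Reads of each of the 9 genes (rows) in each library (columns, with black lines between control, non-met and met), with colour for log10(reads + 1). Met 2 and met 3 each held 3 genes above 5 reads, and no other library held more than 1.

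*Itga2b* was the only one of the 9 genes above 5 reads in every met library. The receptor's alpha subunit had 227, 158 and 267 reads in met 1, 2 and 3, which is 89.1, 28.8 and 30.4 CPM. Non-met 2 had 185 reads (24.1 CPM), and the 5 other non-met libraries and both controls had 0. The met libraries were thus above all non-met libraries, although the lowest of them and non-met 2 were close. The exact 95% binomial interval of met 2 was 24.5 to 33.7 CPM and that of non-met 2 was 20.7 to 27.8 CPM, so the counting intervals of these libraries overlap.

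The level of *Itga2b* was 49.5 CPM ± 34.3 (SD, n = 3) in met, 4.01 ± 9.83 (SD, n = 6) in non-met and 0 in control (n = 2). Mean CPM was 12.3-fold higher in met than in non-met and at least 82.9-fold higher than in the controls, taking the higher control floor of 3 reads. Without met 1 these values were 7.39-fold and at least 49.7-fold, without non-met 2 met was at least 12.1-fold above the non-met floor, and without control 2 the bound over control was 322-fold. In bulk libraries such as these, fewer cells of a type and less RNA per cell cannot be told apart. Within each burdened pool that gave both areas, met lay above non-met. In pool 2, met 1 had 89.1 CPM against 24.1 and 0 CPM in non-met 2 and 6. In pool 3, met 2 had 28.8 CPM against 0 in non-met 3 (floor 0.735 CPM). In pool 4, met 3 had 30.4 CPM against 0 in non-met 4 (floor 4.09 CPM).

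Between met and non-met, voomLmFit put *Itga2b* 6.03 higher on the log2 scale (SE 1.46), with an adjusted p of 0.0794 over 11949 genes, which misses the threshold of 0.05. The exact two-sided permutation test of log2 CPM gave a difference of 5.95 with p = 0.0119, the smallest that 84 splits of 3 and 6 libraries can give, and an adjusted p of 1 over all genes tested. All 3 met libraries were above all 6 non-met libraries, as they were for 1.54% of the genes tested, and above both controls, as for 8.43%. Leaving out control 1 or control 2 moved the adjusted p of voomLmFit to 0.0373 or 0.0459, and removing the filter on low counts moved it to 0.0209. With the mouse pool as a fixed block, the log2 fold change was 5.98 and the adjusted p 0.9998. The adjusted p spanned 0.0209 to 0.9998 over the alternatives that gave one.

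Against control, *Itga2b* was called higher in met by voomLmFit, by 9.05 on the log2 scale (SE 2.18, adjusted p = 0.0406). The gene passed the filter on low counts only through its met libraries, so the direction of its tests against met was partly set by the filter. Both controls had 0 reads, so the fitted value does not give the size of the difference, for which the bound above stands. The exact permutation test of 10 splits cannot go below p = 0.1, the value it gave. Of 23 alternatives that gave an adjusted p (0.000291 to 0.886), the call was kept in 6 and lost in 17, among them the quasi-likelihood test of edgeR (adjusted p = 0.886) and limma-trend (adjusted p = 0.702), and leaving out met 1, met 2 or met 3 gave 0.0913, 0.0588 and 0.121. DESeq2 gave *Itga2b* no adjusted p here. Leaving out control 1, non-met 2, 3, 4, 5 or 6 also ended the call, with adjusted p of 0.159, 0.0707, 0.0527, 0.0514, 0.0793 and 0.0575. Between non-met and control the log2 fold change was 3.02 (SE 2.23, voomLmFit adjusted p = 0.451). Reads were present in non-met 2 alone, and without that library the fit still gave 2.44 (SE 2.44) although every library of both groups had 0 reads, so fitted log2 values against controls at 0 are no measure of a difference in reads.

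**Figure D3:**
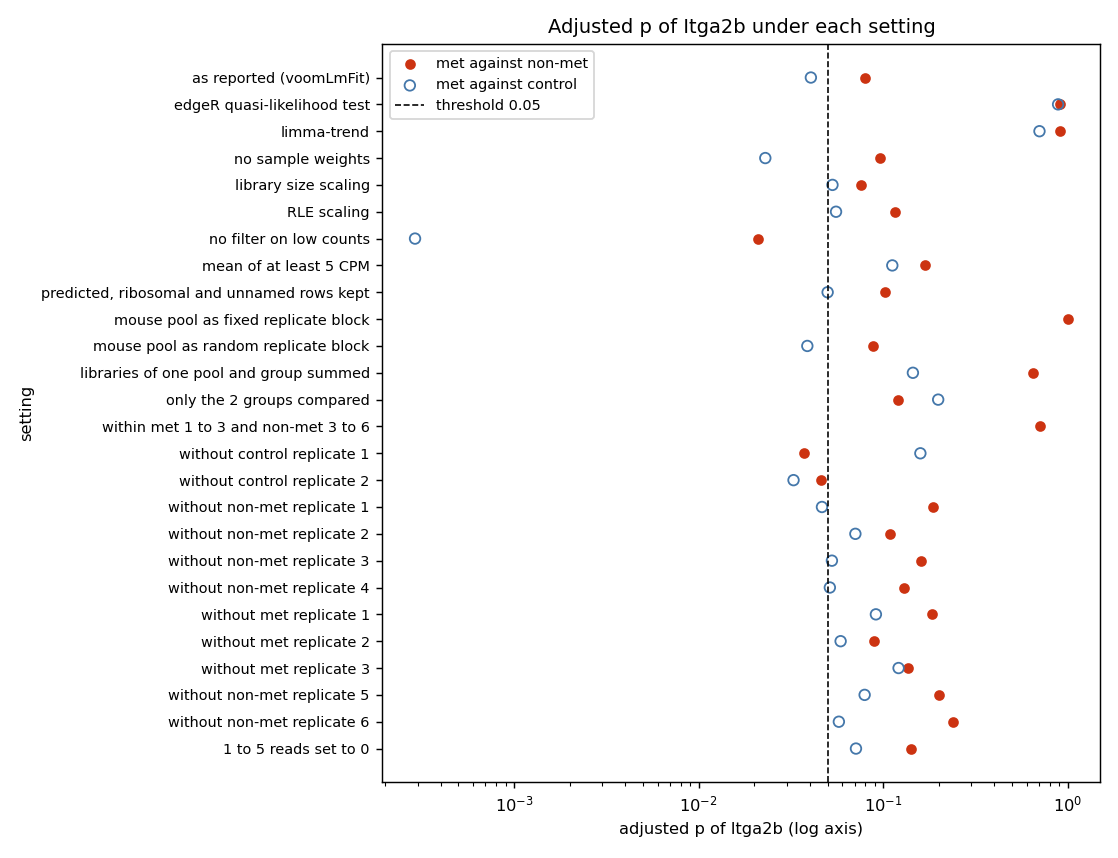
Adjusted p of *Itga2b* (x axis, log scale) in each fit (y axis, settings), for met against non-met (filled) and met against control (open), with a dashed line at 0.05. Met against control passed the threshold as reported (0.0406) and met against non-met did not (0.0794), and most alternatives lay to the right of the line in both.

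*Itgb3*, the beta subunit of the same receptor, followed *Itga2b* in 2 of the 3 met libraries. It had 217 reads (39.6 CPM) in met 2 and 264 (30.1 CPM) in met 3, but 1 read (0.393 CPM) in met 1, where *Itga2b* was at its highest CPM. Non-met 3, 4 and 6 had 5, 3 and 2 reads (1.22, 4.09 and 1.74 CPM), and the 3 other non-met libraries and both controls had 0. Met 1 lay within the range of the non-met libraries, so the groups overlap. Non-met 2, which had 185 reads of *Itga2b*, had 0 of *Itgb3*. In no library outside met 2 and met 3 were both subunits above 5 reads.

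Mean CPM of *Itgb3* was 23.4 ± 20.5 (SD, n = 3) in met, compared with 1.18 ± 1.61 (SD, n = 6) in non-met, a ratio of 19.9, and met was at least 39.2-fold above the control floor. The ratio rests on 10 non-met reads, with a non-met mean under the floor of non-met 4 (4.09 CPM), and was 12.96 without met 2 and 39.3 without non-met 4. Without non-met 3 no non-met library was above the floor of 3 reads, and met was at least 5.71-fold above that floor. The bound over control was 25.6-fold without met 2 and 152-fold without control 2. The log2 fold change was 3.33 (SE 2.13, voomLmFit adjusted p = 0.753) against non-met and 7.50 (SE 2.72, adjusted p = 0.172) against control. The exact permutation p against non-met was 0.0952. With values of 1 to 5 reads set to 0, the log2 fold change against non-met was 5.15 (SE 2.67, voomLmFit adjusted p = 0.724, where the alternatives spanned 0.287 to 0.9998). No test called *Itgb3*. *Itgav*, the other partner of *Itgb3* and chosen after its values were seen, was present in all 11 libraries at 29.4 to 278 CPM.

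**Figure D4:**
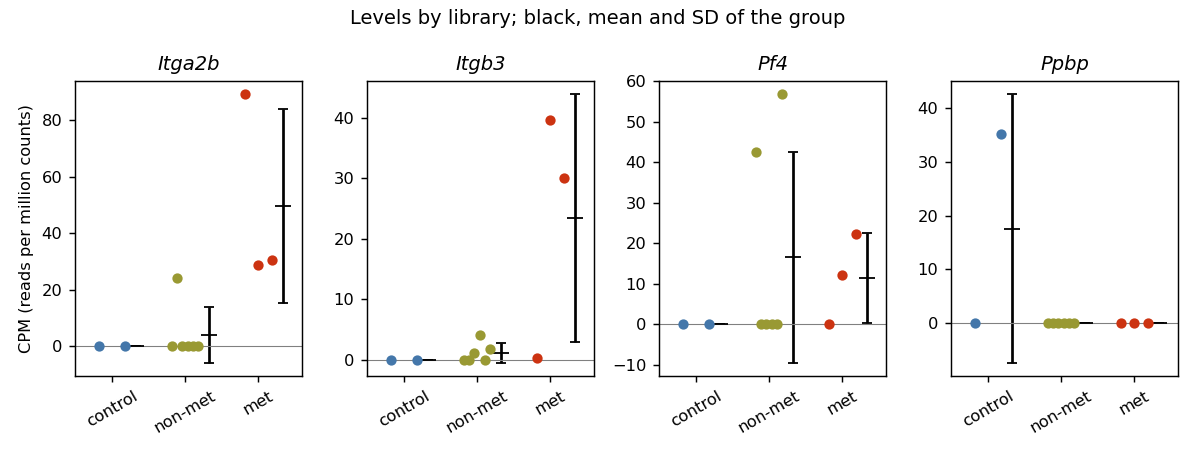
CPM of *Itga2b*, *Itgb3*, *Pf4* and *Ppbp* (y axes, own scale for each gene) in each library (points) by group (x axis), with the mean and SD of each group in black. For *Itga2b* the 3 met points lie at 28.8 to 89.1 CPM and the highest non-met point at 24.1.

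*Pf4*, the platelet chemokine CXCL4, was present in libraries of met and of non-met. It had 66 reads (12.04 CPM) in met 2, 195 (22.2 CPM) in met 3 and 0 in met 1. In non-met it had 285 reads (42.5 CPM) in non-met 1 and 65 (56.7 CPM) in non-met 6, and 0 in the 4 others. Both controls had 0, with floors of 0.154 and 0.596 CPM. The highest values were thus in non-met, and the groups overlap.

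Mean CPM of *Pf4* was 11.4 ± 11.1 (SD, n = 3) in met, compared with 16.5 ± 26.0 (SD, n = 6) in non-met, a ratio of 0.691 that was 0.364 without met 3 and 1.343 without non-met 6. The fitted log2 fold change had the other sign, 1.09 (SE 2.57, voomLmFit adjusted p = 0.955), and turned negative in 4 alternatives, so no direction can be given. The mean was at least 19.2-fold above the control floor in met and at least 27.7-fold in non-met. These bounds were 10.1-fold without met 3 and 14.3-fold without non-met 6, and 74.4-fold and 107.7-fold without control 2. voomLmFit called neither comparison with control, with log2 fold changes of 5.96 (SE 3.19, adjusted p = 0.422) and 4.87 (SE 2.67, adjusted p = 0.342). DESeq2 called both, with adjusted p of 6.64e-05 for met and 9.79e-07 for non-met, and the alternatives spanned 6.64e-05 to 1 and 9.79e-07 to 0.944.

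*Ppbp*, whose product gives the neutrophil attractant NAP-2 and which is the neighbour of *Pf4*, was present in control 2 alone. It had 177 reads there (35.2 CPM, interval 30.2 to 40.8) and 0 in control 1, in all 6 non-met and in all 3 met libraries. No library held reads of both chemokines. The mean of the controls was at least 14.9-fold above the met floor and at least 4.30-fold above the non-met floor, but 1 library carries it. *Ppbp* did not pass the filter on low counts and was not tested.

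*Gp9*, *Gp6*, *Treml1*, *Gp1bb* and *Gp1ba* were at or near 0 in all libraries. *Gp9*, *Gp6* and *Treml1* had 0 reads in all 11 libraries, where the 95% interval reaches 0.189 CPM in control 1 and 5.03 CPM in non-met 4. *Gp1bb* had 1 read in met 2 (0.182 CPM, interval 0.00462 to 1.02) and *Gp1ba* had 1 read in non-met 3 (0.245 CPM, interval 0.00620 to 1.36). *Gp5*, the fourth subunit of the von Willebrand factor complex, had 0 reads throughout. No subunit of that complex was therefore detected above 1 read in any library, nor was *Gp6*, also in met 2 and met 3, where *Itga2b*, *Itgb3* and *Pf4* each had at least 66 reads.

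Per length of the counted exons, *Pf4* stood above the integrin subunits where it was present, at 72.3 and 96.4 RPKM (CPM per kilobase of counted length) in non-met 1 and 6 and 20.5 and 37.8 RPKM in met 2 and 3. *Ppbp* reached 32.6 RPKM in control 2. *Itga2b* was at 25.9, 8.39 and 8.86 RPKM in met 1, 2 and 3 and at 7.01 RPKM in non-met 2. *Itgb3* was at 6.85 and 5.21 RPKM in met 2 and 3. Within met 2 and met 3 the order of the levels was therefore *Pf4*, *Itga2b* and *Itgb3*.

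Of the 9 genes, 6 had a read in any library, 4 had more than 5 and 3 (*Pf4*, *Itga2b* and *Itgb3*) passed the filter on low counts and were tested. *Itga2b* and *Itgb3* passed only through met libraries, and *Ppbp*, with reads in 1 control alone, did not pass, so the counts below are partly set by the filter and are given as a description. Between met and non-met, voomLmFit called 0 of these 3 (1 had an unadjusted p under 0.05), beside 0.418% of all genes tested. The quasi-likelihood test and limma-trend also called 0, beside 0.142% and 0.0167%, and DESeq2, which gave *Itga2b* no adjusted p, called 0 of 2, beside 3.23%. Between met and control voomLmFit called 1 of 3, which was higher in met, beside 1.2% of all genes tested (0.686% higher), and between non-met and control it called 0 of 3 (0 with an unadjusted p under 0.05), beside 0.636%. DESeq2 called 1 of 2 (*Pf4*) in both comparisons with control, beside 2.26% and 2.68%, and the quasi-likelihood test and limma-trend called 0, beside 0.0837% and 0.0753% for met and 0.117% and 0.067% for non-met. The pattern of *Itga2b*, above 5 reads in all 3 met libraries, in no control and in at most 1 non-met library, was shared by 9 of the 11949 genes (0.0753%), itself included. Presence above 5 reads in met 2 and met 3 alone, as for *Itgb3*, held for 24 genes (0.201%).

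Summed over the 9 genes, the met libraries held 80.7 to 89.5 CPM, the non-met libraries 0 to 58.4 CPM and the controls 0 and 35.2 CPM. The sum was made up of different genes in different libraries. In met 1 it was *Itga2b* but for 1 read, in met 2 and met 3 it was *Itga2b*, *Itgb3* and *Pf4* (with 1 read of *Gp1bb* in met 2), in non-met 1 and 6 it was *Pf4* but for 2 reads, in non-met 2 it was *Itga2b*, and in control 2 it was *Ppbp*. Non-met 3 and 4 held 6 and 3 reads in all. Non-met 5 and control 1 had 0 reads of all 9 genes, although control 1 was the deepest library.

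The wider platelet and megakaryocyte programme was read from 4 further lists with 82 genes in the table, of which 65 were tested. Between met and non-met voomLmFit called 0 of the 65 (6 had an unadjusted p under 0.05, as had 7.24% of all genes), beside 0.418% of all genes tested. The quasi-likelihood test and limma-trend also called 0 (6 and 4 had an unadjusted p under 0.05, as had 8.38% and 4.7% of all genes), while DESeq2 called 2, both lower, beside 3.23%. Between met and control voomLmFit called 4 (3 higher and 1 lower), beside 1.2% of all genes, and between non-met and control 1, beside 0.636%. Here 20 and 16 of the 65 had an unadjusted p under 0.05, as had 14.1% and 17% of all genes. The quasi-likelihood test and limma-trend called 0 of the 65 in both comparisons with control (with each, 9 in met and 4 in non-met had an unadjusted p under 0.05, as had 4.31% to 4.96% of all genes), and DESeq2 called 3 and 4, all higher, beside 2.26% and 2.68%. The count of 4 was 0 without control 1, 1 without met 1 or non-met 5 and 2 without met 2 or met 3, and the count of 1 was 0 without control 1, non-met 2 or non-met 5 and 2 without control 2, non-met 1 or non-met 3. These fits tested 63 to 73 of the listed genes. The median log2 fold change of met over non-met was 0.06 for 15 receptor genes, -0.03 for 19 granule and secretion genes, -0.72 for 16 cytoskeleton and signalling genes and -1.14 for 15 transcription factors, beside 0.08 for all genes tested. Over control the medians in met were 1.83, 0.06, -0.71 and -0.10, beside -0.09 for all genes, and in non-met 1.15, -0.02, -0.03 and -1.15, beside -0.33.

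The called genes of these lists were also expressed in the healthy ECs. *Gng11*, a G-protein gamma subunit, was at 225 and 239 CPM in the controls, at 194, 657 and 1089 CPM (lowest, median, highest) in non-met, and at 625, 713 and 951 CPM in met. It rose by 2.04 on the log2 scale in met (SE 0.30, voomLmFit adjusted p = 0.000178) and by 1.69 in non-met (SE 0.33, adjusted p = 0.0144) against control, calls that were kept in 21 and 19 of 24 alternatives. *Cd9*, a tetraspanin of platelets and of ECs, was at 161 and 155 CPM in the controls and at 356, 476 and 650 CPM in met, a rise of 1.97 (SE 0.49, voomLmFit adjusted p = 0.0439) that was called in 12 of 24 alternatives. *Sparc*, a matrix protein also kept in alpha granules, was called higher in met with a fitted change of 0.06 (SE 0.01, voomLmFit adjusted p = 0.000580), where unweighted mean log2 CPM differed by 0.63, and the call was kept in 9 of 24 alternatives. *Myh9*, non-muscle myosin heavy chain, was called lower with a fitted change of -0.37 (SE 0.07, voomLmFit adjusted p = 0.00561), where unweighted mean log2 CPM was 0.21 higher in met, so the fit and the plain means differ in sign. Over the 24 alternatives its change spanned -0.44 to 0.25, the call was kept in 12, and the cause was not tested.

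Among megakaryocyte genes with 0 reads in both controls, reads were again present in some libraries and 0 in others. *Clec1b* (CLEC-2, the platelet receptor for podoplanin) had 237, 97 and 124 reads in the met libraries, 94, 146 and 123 reads in non-met 1, 5 and 6, and 0 in the 3 other non-met libraries and both controls. Its mean was 41.6 CPM ± 44.6 (SD, n = 3) in met, compared with 33.3 ± 47.3 (SD, n = 6) in non-met, a ratio of 1.25, and at least 69.8-fold and 55.8-fold above the control floor. The ratio was 0.478 without met 1 and 2.25 without non-met 6, and the bounds were 26.7-fold without met 1 and 31.0-fold without non-met 6, and 271-fold and 217-fold without control 2. Over control it was 8.35 higher on the log2 scale (SE 2.70, voomLmFit adjusted p = 0.121) in met and 5.80 (SE 2.68, adjusted p = 0.279) in non-met. DESeq2 called *Clec1b* in both (adjusted p of 3.19e-11 and 2.19e-13) and voomLmFit without a filter called it in met (adjusted p = 0.00787), while its adjusted p over the alternatives ranged from 3.19e-11 up to 0.998 for met and from 2.19e-13 up to 0.936 for non-met. The annotated span of *Clec1b* overlaps that of *Clec12b*. Whether their counted exons share bases was not examined, so how reads of the pair were assigned is not known. *Tubb1*, the tubulin of the platelet marginal band, had 0 reads in all libraries.

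Of 17 transcription factors listed for the lineage, 13 and 14 were above 5 reads in the control libraries, 8, 12 and 13 in met 1, 2 and 3, and 6 to 14 in the non-met libraries. The 3 named next were each found in few libraries. *Gata1* had 32 reads in non-met 1 alone. *Gfi1b* had 302 reads in non-met 2 and 36 in control 2. *Nfe2*, the factor of proplatelet formation, had 179 reads in met 1, 72 in non-met 3 and 77 in non-met 6. None of these 3 factors was found in met 2 or met 3, the libraries in which both integrin subunits were present. *Fli1*, which ECs also express, was at 101, 104 and 108 CPM in met, 22.7 and 156 CPM in the controls and 0 to 153 CPM in non-met, with no call. *Vwf* and *Selp*, shared by platelets and ECs, were not called in any comparison by voomLmFit, at 0 to 182 CPM and 188 to 977 CPM over the 11 libraries.

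**Figure D5:**
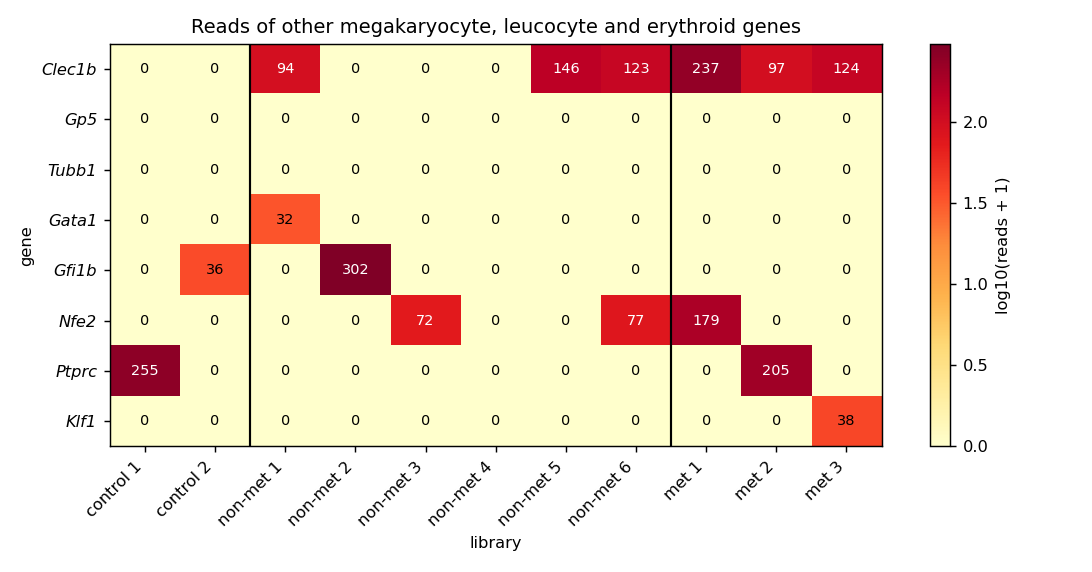
Reads of 6 other megakaryocyte genes (*Clec1b* to *Nfe2*), of *Ptprc* and of the erythroid gene *Klf1* (rows) in each library (columns), with colour for log10(reads + 1). *Gp5* and *Tubb1* were at 0 throughout, and *Clec1b* was present in 3 met and 3 non-met libraries.

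Markers of other marrow cells were counted beside the 9 genes, and their part in the values above was not tested. All 12 granulocyte genes were above 5 reads in some library, and their summed level was 35.2 to 181 CPM in met, 313 to 5139 CPM in non-met and 83.9 to 403 CPM in control. *S100a8* was at 50.5 to 934 CPM in non-met and at 0 to 12.1 CPM in met. Of 11 erythroid genes in the table, 9 were above 5 reads in some library, with sums of 20.6 to 111 CPM in met, 0 to 163 CPM in non-met and 8.75 to 49.9 CPM in control. *Klf1*, an erythroid transcription factor, was at 0 in all but met 3. The sum of 10 lymphoid genes was 0 to 131.5 CPM in met, 0 to 87.6 CPM in non-met and 0 to 19.1 CPM in control, with *Cd79a* at 86.4 CPM in met 1. The mast cell and basophil list of 5 genes had 136 CPM in non-met 2, the non-met library with *Itga2b*, and at most 0.537 CPM in the other 10 libraries, with *Cpa3* at 0 in all. *Ptprc*, the marker of the leucocyte gate, was at 37.4 CPM in met 2 and at 0 in met 1, met 3 and non-met 2, where *Itga2b* had 185 reads or more. Of 12 monocyte and macrophage genes 7 were above 5 reads in some library, with sums of 315 to 871 CPM in met, 346 to 1254 CPM in non-met and 1122 and 1640 CPM in control, and *C1qa* was at 0 in all libraries. Of 8 epithelial genes, 6 were above 5 reads in some library, with sums of 10.9 to 68.8 CPM in met, 1.19 to 136 CPM in non-met and 0.870 and 21.9 CPM in control. The sum of 8 stromal and mural genes was 470 to 2301 CPM in met, 738 to 3403 CPM in non-met and 3938 and 11362 CPM in control. All 12 EC genes were above 5 reads in every library, with sums of 12915 to 17060 CPM in met, 8788 to 13583 CPM in non-met and 9511 and 13565 CPM in control.

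The genes whose levels over the 11 libraries were most like the mean log2 CPM of the 9 genes were *Slc35d1* (Spearman rho 0.870), *Gbp8* (0.843), *Pdia3* (0.834), *Dctn4* (0.825), *Gbp4* (0.815), *Dph3* (0.811), *Piwil4* (0.803) and *Rnf215* (0.797). These are descriptions over 11 libraries that share mouse pools and differ in depth, and they carry no test. *Slc35d1*, a nucleotide sugar transporter of the endoplasmic reticulum, was at 63.3 and 37.8 CPM in met 2 and met 3, 0.785 in met 1 and at most 7.85 CPM elsewhere. *Gbp4*, an interferon-inducible GTPase, was at 767, 1107 and 828 CPM in met and at 159 to 622 CPM in the other 8 libraries.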

How the data were processed

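RNA-seq was measured in 11 libraries of sorted ECs (3 met, 6 non-met, 2 control), grouped and assigned to mouse pools per the labels. Rsubread (alignment to mm10) and featureCounts (inbuilt NCBI annotation, Entrez genes) were the authors' tools. What they deposited are raw read counts, without normalisation, and gene length in bases is the other deposited column used. One library of low mapping had been removed by the authors. Counts in the 11 single-library tables were identical to those in the table of the series.

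Symbols came from RefSeq GRCm38.p6 (25275 of 27179 rows) and GENCODE (18). The 1886 unnamed, 35 ribosomal RNA and 1794 predicted rows were left out (1.94% to 15.7% of a library's counts), which kept 23464. The filter filterByExpr (minimum count 10, minimum total 15) left 11949 genes. Following the study, voomLmFit with sample weights (0.430 to 1.96) was used, in edgeR 4.0.16 and limma 3.58.1 (R 4.3.3), on 1 model of 3 groups with TMM scaling and Benjamini-Hochberg adjustment over all genes tested. A gene was called at an adjusted p under 0.05. Printed CPM is reads per 1000000 of a library's total counts, and log2 CPM used TMM and a prior count of 2. Exact two-sided permutation tests used scipy 1.17.1. Intervals are exact binomial intervals at 95%, for reads out of a library's total counts. Folds against a group at 0 use its highest floor of 3 reads.

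Nothing says that pools of one group are separate experiments beyond being separate mice, and libraries of one pool and group share animals, so p-values measure the spread between these libraries. A burdened pool that gave both areas pairs met with non-met libraries of the same mice. Deviations of paired libraries from their group means had correlations of -0.00552, -0.0339 and 0.0130 over 11949 genes.

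Alternatives comprised DESeq2 1.42.0, the quasi-likelihood test of edgeR, limma-trend, equal sample weights, scaling by RLE or library size alone, no filter, a mean of at least 5 CPM, rows left out kept, a fixed or random block for mouse pool, sums of the libraries that share pool and group, the 2 groups only, met 1 to 3 with non-met 3 to 6, a prior count of 0.5 and each library left out. Setting 1 to 5 reads to 0 was chosen after seeing the data.

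The 9 members and the gene lists were chosen with earlier results of these data known. Beyond the members, the genes named are those of the 4 platelet lists called in any comparison, listed platelet and megakaryocyte genes, the 8 genes most alike and the defining markers of other cell types, some of which are not reported here. *Itgav* falls outside this rule.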

Additional observations from a re-analysis of the deposited data

Results flagged for a closer look

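In 4 genes 1 non-met library stood apart from the 5 others, by the gap to its nearest neighbour as a share of the group's range in CPM and Dixon's 95% limit for 6 libraries. The share was 1 for *Itga2b* and *Gfi1b*, each in non-met 2, and 1 for *Gata1* in non-met 1, because the other 5 libraries were at 0. It was 0.737 for *Nfe2* in non-met 6, with 67.2 CPM against 17.6 CPM in non-met 3 and 0 in the others. Levels of 10 genes were looked at in this way, and chance gives such a gap in about 1 of 20 groups of normally distributed values. Where all other libraries are at 0 the share is 1 by construction, so that rate does not apply to the 3 genes above with a share of 1.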

How the results depend on the processing

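Depth and the number of libraries limit these results. In non-met 4 a gene below 4.09 CPM would not be told from 0, the controls are 2 libraries, and a call can turn on 1 library. Of the 3 genes tested, *Itga2b* kept the sign of its log2 fold change in every setting that gave a value between met and non-met and between met and control, and *Itgb3* in all 3 comparisons. Both controls had 0 reads of these genes, so the sign against control was largely set in advance. Both genes passed the filter only through met libraries, which partly set the sign of met over non-met. The kept signs are therefore a description and no test. *Pf4* between met and non-met turned to -0.64 in the quasi-likelihood test, -0.89 in DESeq2, -1.26 without met replicate 2 and -1.29 without met replicate 3 (-1.29 to 3.15 with 1 library left out), against 1.09 as reported, and the cause was not tested. The mean log2 CPM of *Itga2b* in non-met no longer exceeded control without non-met replicate 2 (difference 0, and 0 to 1.25 with 1 library left out, where 1.04 was reported). Called members between met and non-met were 0 as reported and 1 (*Itga2b*) with no filter and 0 to 1 with 1 library left out. Between met and control they were 1 as reported, 0 in the quasi-likelihood test, limma-trend, library size scaling, RLE scaling, a mean of at least 5 CPM, summed libraries, the 2 groups only and with 1 to 5 reads set to 0, and 0 to 1 with 1 library left out. Between non-met and control they were 0 as reported, 1 (*Pf4*) in DESeq2 and 0 with any library left out. Of the genes in the other platelet lists, 65 were tested as reported, and a number in brackets gives those tested where a setting differed. Between met and non-met 0 were called as reported, 2 in DESeq2, 1 with library size scaling or the 2 groups only (55), and 0 to 1 with 1 library left out (63 to 73). Between met and control 4 were called as reported, 0 in the quasi-likelihood test and limma-trend, and 7 with no filter (75). The count was 2 with predicted rows kept or the 2 groups only (56), 1 with summed libraries (63) and 0 to 6 with 1 library left out (63 to 73). Between non-met and control 1 was called as reported, 0 in the quasi-likelihood test and limma-trend, 4 in DESeq2 and 3 with library size scaling. The count was 2 with no filter (75) or with 1 to 5 reads set to 0 (64), and 0 to 2 with 1 library left out (63 to 73). In the paired fit (fixed replicate block for the mouse pool), *Itga2b* had a log2 fold change of 5.98, *Itgb3* 2.24 and *Pf4* 1.36 between met and non-met, and neither this nor the random block changed a call of a member. Over all genes tested, voomLmFit called 50, 143 and 76 in the 3 comparisons (met against non-met, met against control, non-met against control), the quasi-likelihood test 17, 10 and 14, DESeq2 326, 228 and 267 and limma-trend 2, 9 and 8, and without met replicate 3 voomLmFit called 16, 36 and 103. A fixed block and a fit within met 1 to 3 and non-met 3 to 6 could not be made for comparisons with control.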
